A study of Dorcoceras hygrometricum with 3 samples.

Results

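Proteases and peptidases are the enzymes that cut proteins. Some finish newly made proteins by removing signal sequences and leader methionines, some act in the vacuole on stored or unwanted protein, and some, driven by ATP, remove damaged proteins inside chloroplasts and mitochondria. In drying leaves they are known for the turnover of damaged protein, and FtsH proteases in particular for removing light-damaged subunits of photosystem II. DNA methylation in plants lies in gene bodies as well as beside genes, and a difference of methylation says nothing by itself about how strongly a gene is used.

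The protease and peptidase genes described here were found by words in the first functional description that the authors' tables give a gene: protease, peptidase, proteinase, cathepsin, subtilisin or FtsH, with ubiquitin and SUMO descriptions left out. The rule found 58 genes among the 5575 genes that the authors listed for a methylation difference, 35 genes of 3177 in the comparison of hydrated leaves with leaves at 70% relative water content (RWC) and 43 genes of 3660 in the comparison with leaves at 10% RWC. Of the 58 genes, 13 were described as FtsH. They are included in the counts of all protease genes and are also described apart. There were 20 genes in both comparisons, 15 in the 70% RWC comparison alone and 23 in the 10% RWC comparison alone. The shared genes were 57.1% and 46.5% of the protease genes of each comparison, beside 39.7% and 34.5% of all listed genes. No member's description held the words subtilisin or proteinase, and the exclusion removed no gene.

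The plants were Boea hygrometrica (labelled Dorcoceras hygrometricum), a resurrection plant whose leaves survive drying. Leaf DNA came from potted plants that were hydrated (HD), moderately dehydrated (70% RWC) or desiccated (10% RWC), and it was sequenced after bisulfite treatment with 1 library per condition. The labels give no genotype, plant age or number of plants for a library, so differences between libraries and differences between conditions cannot be told apart, and no test between conditions was possible. Each listed gene has 1 region with a mean methylation level, a fraction from 0 to 1, in the hydrated and in 1 dehydrated library. The number of reads behind a level is unknown. Among all listed genes with both levels above 0, the higher level was at least 1.92 times the lower at 70% RWC and 1.86 times at 10% RWC. The values therefore say in which direction listed genes differed and not how many protease genes stayed the same. Positions are 1-based scaffold coordinates as deposited, of a genome build not given in the sources used here.

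Membership rests on a description, and some descriptions are weakly based. The KEGG cell of each gene carries a number that is not named in the header and was read here as the similarity score of the match. It ran from 51.2 to 1273 at 70% RWC (median 356) and from 50.1 to 1094 at 10% RWC (median 390), and 7 members in each comparison were below 100. All 3 genes described as site-1 protease (50.1, 50.8 and 51.2) and 3 of the Clp genes (65.1, 69.3 and 70.9) were below 100. A Gene Ontology function term with the word peptidase in its printed name was given for 18 of 35 members at 70% RWC and 24 of 43 at 10% RWC. Function terms printed as an identifier without a name, as for Bhs2020_004V1.1 and Bhs478_047V1.1, were not counted. The counts are therefore lower bounds for members with a peptidase term. Among members with named function terms only, the aminopeptidase N gene Bhs2050_011V1.1 has only a UDP-glycosyltransferase term. The mitochondrial processing peptidase gene Bhs784_018V1.1 has cytoskeletal protein binding as its only function term. The ClpC gene Bhs208_025V1.1 has only protein kinase binding. The Clp protease subunit gene Bhs80_015V1.1 has binding, exocytosis and protein transport terms.

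At 70% RWC, 27 of the 35 protease genes had a higher methylation level than when hydrated and 8 a lower one. The share with a higher level was 77.1% (exact 95% binomial interval 59.9 to 89.6, which covers the counting of genes only), beside 70.6% of all listed genes. At 10% RWC, 27 of 43 were higher and 16 lower, a share of 62.8% (46.7 to 77.0) beside 55.8% of all listed genes. These counts include the FtsH genes. Without them 21 of 25 genes were higher at 70% RWC (84.0%, interval 63.9 to 95.5). At 10% RWC 21 of 37 were higher without them (56.8%, interval 39.5 to 72.9). In both comparisons the share of all listed genes lay inside the interval of the protease genes, and a share that near the background is not a result about protease genes. Protease genes with a gain had a median level of 0.15 when hydrated and 0.35 at 70% RWC, and of 0.08 and 0.25 in the 10% RWC comparison. Those with a loss had medians of 0.305 and 0.11 at 70% RWC, and of 0.315 and 0.13 at 10% RWC. The median size of the difference in either direction was 0.20 at 70% RWC and 0.17 at 10% RWC, beside 0.22 and 0.20 over all listed genes. Differences of at least 0.3 were listed at 8 of 35 protease genes at 70% RWC (22.9%, beside 25.1% of all listed genes) and at 7 of 43 at 10% RWC (16.3%, beside 23%).

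**Figure D1:**
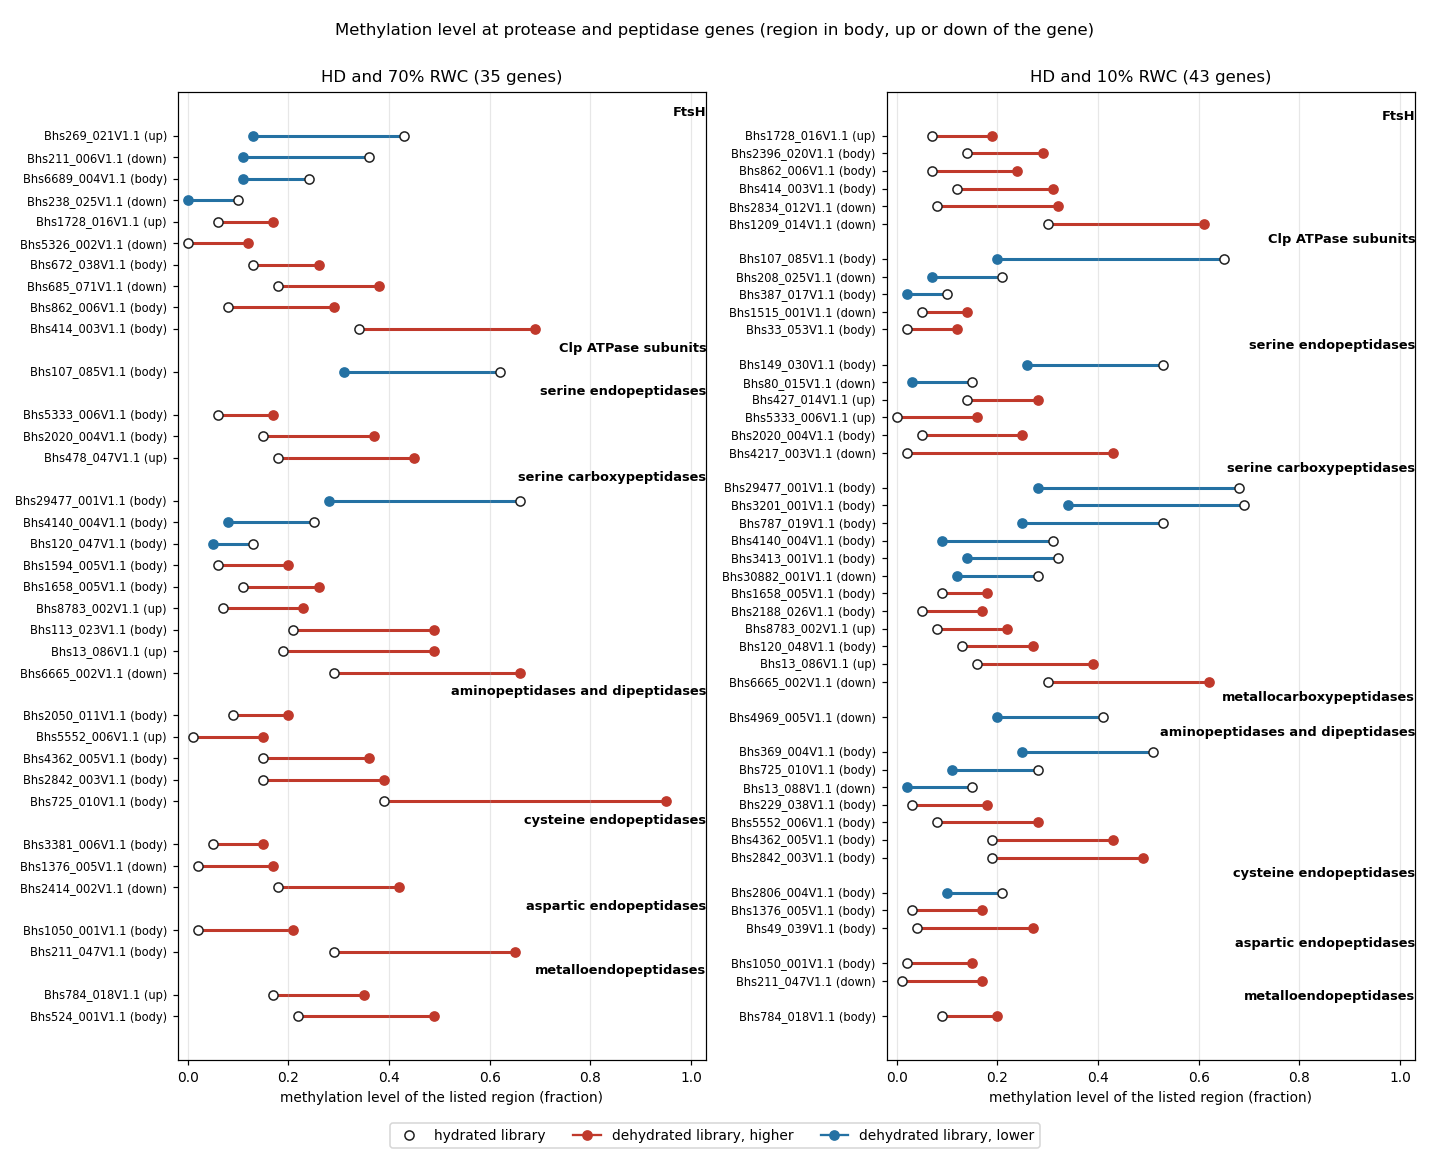
Methylation level (x axis, fraction) of the listed region of each protease gene in the hydrated library (open circles) and the dehydrated library (filled circles, red where higher and blue where lower), for 70% RWC on the left and 10% RWC on the right. Genes are grouped by class, and the words in brackets give the part of the gene. At 10% RWC all 6 FtsH genes and 6 of the 12 serine carboxypeptidase genes were higher. The 55.8% of all listed genes that were higher lies inside the intervals of both classes (54.1% to 100% and 21.1% to 78.9%).

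FtsH proteases are ATP-driven zinc metalloproteases anchored in the membranes of chloroplasts and mitochondria. Of the 10 FtsH genes listed at 70% RWC, 6 were higher and 4 lower, with an exact 95% interval of the higher share from 26.2% to 87.8%. At 10% RWC 6 were listed and all 6 were higher, with an interval from 54.1% to 100% that holds the 55.8% of all listed genes. Only 3 FtsH genes were in both comparisons, so the 2 counts rest mostly on different genes.

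The FtsH description covers 2 kinds of entries. Gene Ontology terms of endopeptidase or nucleoside-triphosphatase activity, the activities of an FtsH protease, were given for 6 of the 13 genes. The other 7 genes all took the description from a match to the same castor bean entry, had no functional term, and 5 of them carried a further description as SLX1, an endonuclease subunit. Match scores were 143 to 1273 for the first 6 genes and 55.8 to 296 for the other 7. Whether these 7 encode FtsH proteases was not tested.

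Among the 6 FtsH genes with such terms, Bhs238_025V1.1 is the one with thylakoid terms. A stretch 478 bp downstream of it (scaffold238, 288023 to 288231), listed also for a ribosomal protein L11e gene, had a level of 0.10 when hydrated and was listed at 0 at 70% RWC. Inside Bhs6689_004V1.1, with a plastid term, the level was 0.24 when hydrated and 0.11 at 70% RWC. Both losses were small, and neither gene was listed at 10% RWC. Bhs862_006V1.1 has a plastid term and process terms for the response to light intensity and for protein breakdown. A region across one end of this gene, listed at 70% RWC also for a neighbouring protein phosphatase 2C gene, was at 0.08 when hydrated and 0.29 at 70% RWC (scaffold862, 22197 to 22752). In the 10% RWC comparison an overlapping stretch of it was at 0.07 and 0.24 (22288 to 22698). The stretches share 411 bp, which is 73.9% of the one listed at 70% RWC.

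The largest FtsH difference at 70% RWC lay inside Bhs414_003V1.1, a gene of 30391 bp with a plastid envelope term. The level there was 0.34 when hydrated and 0.69 at 70% RWC (scaffold414, 43195 to 43514). At 10% RWC another stretch of the same gene body, 2163 bp away, was listed with 0.12 and 0.31. Downstream of Bhs1209_014V1.1 the level was 0.30 when hydrated and 0.61 at 10% RWC, the largest FtsH difference in that comparison. In Bhs2396_020V1.1, which has a plastid envelope term, it was 0.14 and 0.29. Of these 6 genes, 2 were higher and 2 lower at 70% RWC, and all 4 that were listed at 10% RWC were higher. The intervals of the higher shares, 6.76% to 93.2% and 39.8% to 100%, hold the 70.6% and 55.8% of all listed genes.

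Among the 7 FtsH genes of the castor bean match, losses were listed upstream of Bhs269_021V1.1 (0.43 when hydrated and 0.13 at 70% RWC) and downstream of Bhs211_006V1.1 (0.36 and 0.11). Gains at 70% RWC were smaller. They were 0.18 to 0.38 downstream of Bhs685_071V1.1, 0.13 to 0.26 in the body of Bhs672_038V1.1, and 0 to 0.12 downstream of Bhs5326_002V1.1. Downstream of Bhs2834_012V1.1 the level was 0.08 when hydrated and 0.32 at 10% RWC. Upstream of Bhs1728_016V1.1, a gene of 465 bp, the level was 0.06 and 0.17 in the 70% RWC comparison and 0.07 and 0.19 in the 10% RWC comparison, over stretches that overlap. That stretch was also listed for 2 neighbouring genes, one of them for the SRP54 subunit of the signal recognition particle, so it cannot be assigned to the FtsH description alone.

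Clp proteases are driven by ATP and include the main such protease of the chloroplast stroma. ClpC and ClpX unfold proteins and feed them to a chamber of protease subunits, while ClpB is a chaperone that pulls aggregates apart and does not serve the protease. The Clp genes went both ways. The largest loss of all protease genes at 10% RWC was in the body of the ClpB gene Bhs107_085V1.1 (scaffold107, 649420 to 649941), with 0.65 when hydrated and 0.20 at 10% RWC. A shorter stretch inside it (649653 to 649928) was at 0.62 and 0.31 in the 70% RWC comparison. The other Clp genes were listed at 10% RWC alone and started from low levels. A second ClpB gene, Bhs1515_001V1.1, had 0.05 and 0.14 downstream, and the ClpC gene Bhs33_053V1.1 had 0.02 and 0.12 in its body. Both ClpB genes carried a further description as ClpC, so ClpB and ClpC are not clearly set apart here. Lower levels were listed for a ClpC gene, Bhs208_025V1.1 (0.21 and 0.07, downstream), the ClpX gene Bhs387_017V1.1 (0.10 and 0.02, body) and the gene of a protease subunit, Bhs80_015V1.1 (0.15 and 0.03, downstream).

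Serine carboxypeptidases, which trim proteins from the C-terminal end and act largely in the vacuole, were the largest class other than FtsH. At 70% RWC 6 of 9 genes were higher and 3 lower, and at 10% RWC 6 of 12 were higher and 6 lower. These shares, 66.7% and 50.0%, are near the 70.6% and 55.8% of all listed genes. Cathepsin A genes made up 6 of the 9 and 6 of the 12, with 4 higher and 2 lower in each comparison. In the body of Bhs113_023V1.1 the level was 0.21 when hydrated and 0.49 at 70% RWC, the largest cathepsin A difference. The body of Bhs4140_004V1.1 was lower in both comparisons, at stretches 21 bp apart, with 0.25 and 0.08 at 70% RWC and 0.31 and 0.09 at 10% RWC. The gene Bhs1658_005V1.1 had gains over overlapping stretches of its body, 0.11 and 0.26 at 70% RWC and 0.09 and 0.18 at 10% RWC. Upstream of Bhs8783_002V1.1 the levels were 0.07 and 0.23, then 0.08 and 0.22. On scaffold120, 2 neighbouring cathepsin A genes were each listed once, Bhs120_047V1.1 with a loss at 70% RWC (0.13 and 0.05) and Bhs120_048V1.1 with a gain at 10% RWC (0.13 and 0.27). The other cathepsin A differences lay in gene bodies, with 0.06 and 0.20 in Bhs1594_005V1.1 at 70% RWC, 0.05 and 0.17 in Bhs2188_026V1.1 at 10% RWC, and 0.32 and 0.14 in Bhs3413_001V1.1 at 10% RWC. Bhs2188_026V1.1 and Bhs3413_001V1.1 carried a further description as hydroxymandelonitrile lyase, whose enzyme number is not that of a peptidase.

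Pro-X carboxypeptidases remove the last residue of a chain when a proline stands before it. Their genes held some of the strongest methylation and some of the largest losses among the protease genes. In the body of Bhs29477_001V1.1 the level was 0.66 when hydrated and 0.28 at 70% RWC (scaffold29477, 1710 to 1939), and 47 bp away it was 0.68 and 0.28 in the 10% RWC comparison (1246 to 1662). A body region of Bhs3201_001V1.1 had 0.69 and 0.34 at 10% RWC, and a region downstream of Bhs30882_001V1.1 had 0.28 and 0.12. The fourth gene of this description went the other way. Downstream of Bhs6665_002V1.1 (scaffold6665) the level was 0.29 when hydrated and 0.66 at 70% RWC (49764 to 50098), and an overlapping stretch was at 0.30 and 0.62 in the 10% RWC comparison (49664 to 49987). At 10% RWC 3 of the 4 Pro-X genes were thus lower and 1 higher. The interval of the higher share, 0.631% to 80.6%, holds the 55.8% of all listed genes that were higher.

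The remaining descriptions completed the class. Bhs13_086V1.1 was described as serine carboxypeptidase-like 19, which in Arabidopsis is an acyltransferase of phenylpropanoid metabolism and no peptidase. Its upstream region (scaffold13, 723291 to 723690) had 0.19 when hydrated and 0.49 at 70% RWC, and at 10% RWC 0.16 and 0.39, and it is equally the upstream region of a neighbouring gene described as a cysteine and glycine-rich protein. The body of Bhs787_019V1.1, a vitellogenic carboxypeptidase-like gene, had 0.53 when hydrated and 0.25 at 10% RWC. The only metallocarboxypeptidase was glutamate carboxypeptidase II, Bhs4969_005V1.1, with 0.41 and 0.20 at 10% RWC, downstream of the gene and inside the body of its neighbour, a regulatory subunit of phosphoinositide-3-kinase.

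Aminopeptidases and the enzymes that take dipeptides or tripeptides from the N-terminal end were higher in 5 of 5 genes at 70% RWC (beside 70.6% of all listed genes) and in 4 of 7 at 10% RWC (beside 55.8%). The intervals of these shares, 47.8% to 100% and 18.4% to 90.1%, hold the background. The largest difference of any protease gene was in the body of Bhs725_010V1.1, an Xaa-Pro aminopeptidase, which removes the first residue when proline follows it. There the level was 0.39 when hydrated and 0.95 at 70% RWC (scaffold725, 285557 to 285788). In the 10% RWC comparison another stretch of the same gene, 1168 bp further on (286957 to 287208), had 0.28 when hydrated and 0.11. The gene was thus listed with opposite directions, and the level of either stretch in the remaining library is not given.

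Towards one end of the methionyl aminopeptidase gene Bhs2842_003V1.1, whose product removes the starting methionine of new proteins, the level was 0.15 when hydrated and 0.39 at 70% RWC (scaffold2842, 41117 to 41430). In the 10% RWC comparison nearly the same stretch (41114 to 41430) was at 0.19 and 0.49. The gene of tripeptidyl-peptidase II, Bhs4362_005V1.1, a large cytosolic enzyme that works on peptides left by the proteasome, had 0.15 and 0.36, then 0.19 and 0.43. Both genes were thus higher at overlapping stretches in both dehydrated libraries. The aspartyl aminopeptidase gene Bhs5552_006V1.1 was listed for 2 separate stretches, upstream at 70% RWC (0.01 and 0.15) and in its body at 10% RWC (0.08 and 0.28). At 10% RWC alone, the body of Bhs369_004V1.1, described as dipeptidyl-peptidase 4, had 0.51 and 0.25, and a stretch downstream of the proline iminopeptidase gene Bhs13_088V1.1 had 0.15 and 0.02. Small gains from low levels were listed in the bodies of the aminopeptidase N gene Bhs2050_011V1.1 (0.09 and 0.20 at 70% RWC) and of a second Xaa-Pro aminopeptidase gene, Bhs229_038V1.1 (0.03 and 0.18 at 10% RWC).

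Serine endopeptidases were higher in 3 of 3 genes at 70% RWC and in 4 of 6 at 10% RWC, the Clp protease subunit gene included, beside 70.6% and 55.8% of all listed genes, which lie inside the intervals of so few genes. Signal peptidase I cuts targeting sequences from exported proteins, and its genes had gains beside the gene in both comparisons. Upstream of Bhs478_047V1.1 the level was 0.18 when hydrated and 0.45 at 70% RWC, and downstream of Bhs4217_003V1.1 it was 0.02 and 0.43 at 10% RWC, the largest gain in that comparison (scaffold4217, 56728 to 56957). The oligopeptidase B gene Bhs2020_004V1.1, for an enzyme of short peptides, had overlapping body regions, listed also as downstream of an acyl-CoA oxidase gene, with 0.15 and 0.37 at 70% RWC and 0.05 and 0.25 at 10% RWC. Here the hydrated level itself differed by 0.10 between the tables, the largest such gap among overlapping regions, and the 10% RWC stretch lies inside the 70% RWC one. Site-1 protease is a subtilisin-type enzyme of the Golgi that releases membrane-bound transcription factors. Its genes had gains at Bhs5333_006V1.1 (body at 70% RWC, 0.06 and 0.17, and upstream at 10% RWC, 0 and 0.16) and at Bhs427_014V1.1 (upstream at 10% RWC, 0.14 and 0.28), and a loss in the body of Bhs149_030V1.1 (0.53 and 0.26 at 10% RWC).

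The remaining classes were small. Cathepsin L genes encode papain-type cysteine proteases. Bhs1376_005V1.1 was listed downstream at 70% RWC (0.02 and 0.17) and in its body at 10% RWC (0.03 and 0.17). Downstream of Bhs2414_002V1.1 the levels were 0.18 and 0.42 at 70% RWC, and at one end of Bhs2806_004V1.1 they were 0.21 and 0.10 at 10% RWC. Placed with the cysteine proteases by enzyme number or description were a prenyl protein peptidase, Bhs49_039V1.1, whose type of enzyme trims proteins after a lipid is attached (0.04 and 0.27 at 10% RWC), and a sentrin-specific protease, Bhs3381_006V1.1 (0.05 and 0.15 at 70% RWC). The latter is a SUMO protease by another name and stayed in the list because its description does not hold that word.

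Signal peptide peptidase-like enzymes, aspartic proteases that cut inside membranes, were higher at both genes in both comparisons. Of all listed genes 70.6% and 55.8% were higher, which lies inside the interval of 2 genes (15.8% to 100%). In the body of Bhs211_047V1.1 the level was 0.29 when hydrated and 0.65 at 70% RWC. A separate stretch downstream was at 0.01 and 0.17 at 10% RWC, and it was listed also as upstream of a ribosomal protein L7Ae gene. The body of Bhs1050_001V1.1 had 0.02 and 0.21 at 70% RWC and, at a stretch 1183 bp away, 0.02 and 0.15 at 10% RWC. Of the metalloendopeptidases other than FtsH, Bhs784_018V1.1 was described as mitochondrial processing peptidase, the enzyme that removes import sequences, but has no peptidase function term. It had gains at opposite ends 21841 bp apart (0.17 and 0.35 upstream at 70% RWC, 0.09 and 0.20 in the body at 10% RWC). The body of Bhs524_001V1.1 had 0.22 and 0.49 at 70% RWC. This gene was described as O-sialoglycoprotein endopeptidase, a family whose yeast member is known to modify transfer RNA.

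**Figure D2:**
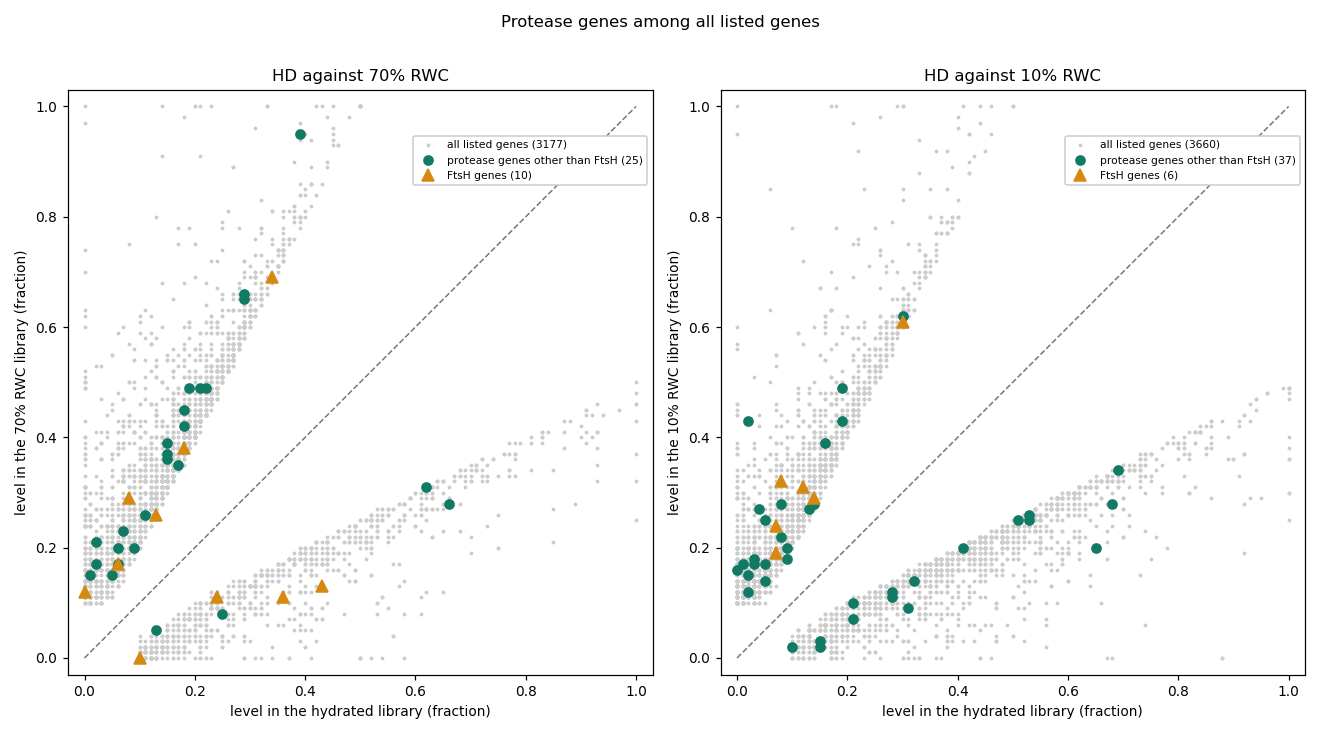
Level in the dehydrated library (y axis, fraction) against level in the hydrated library (x axis, fraction), for 70% RWC on the left and 10% RWC on the right. Grey points are all listed genes, green circles protease genes other than FtsH and orange triangles FtsH genes. The dashed line marks equal levels, and no gene is listed in the band around it; protease genes lie along both arms, with Bhs725_010V1.1 at 0.39 and 0.95 the highest.

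Genes were also split by the higher of their 2 levels, a split that uses the compared levels themselves and is given as a description. Of the 8 protease genes whose higher level was at least 0.5 at 10% RWC, 2 were higher and 6 lower. The interval of this share, 3.19% to 65.1%, holds the 38.2% of the 864 listed genes with such a level that were higher. The 6 losses were at Bhs107_085V1.1, Bhs29477_001V1.1, Bhs3201_001V1.1, Bhs787_019V1.1, Bhs149_030V1.1 and Bhs369_004V1.1, all in gene bodies. Below 0.5, 25 of 35 were higher, beside 61.2% of such listed genes. At 70% RWC 4 of 6 strongly methylated protease genes were higher, beside 67.8% of such listed genes.

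The listed region lay in the gene body at 21 of 35 protease genes at 70% RWC (60.0%, beside 44.3% of all listed genes) and at 27 of 43 at 10% RWC (62.8%, beside 44.2%). The median length of protease genes was 4169 bp at 70% RWC and 4533 bp at 10% RWC beside 2523 and 2554.5 bp over all listed genes. Every protease gene has a description by the rule, and listed genes with a description had median lengths of 3144 and 3156 bp and body shares of 50.3% and 50.8%. When all listed genes were split into 5 equal groups by gene length and weighted as the protease genes fall into them, 54.0% and 53.9% of all listed genes had their region in the body. The part of gene length in the difference was not otherwise tested. Of the protease body regions, 19 of 21 and 24 of 27 lay wholly inside the gene, and 14 of 21 and 15 of 27 were centred within the outer 20% of the gene at either end.

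By part of the gene, the regions with a higher level at 70% RWC were 6 of 7 upstream (beside 71.3% of all listed upstream genes), 5 of 7 downstream (beside 69.3%) and 16 of 21 body regions (beside 71.0%). At 10% RWC all 5 upstream regions were higher (beside 50.1% of all listed upstream genes), 6 of 11 downstream (beside 52.3%) and 16 of 27 body regions (beside 61.5%). The interval of the upstream share, 47.8% to 100%, holds the 50.1%. The 5 upstream regions belong to Bhs13_086V1.1, Bhs1728_016V1.1, Bhs8783_002V1.1, Bhs427_014V1.1 and Bhs5333_006V1.1, and the first 2 are shared with neighbouring genes. Regions listed for more than 1 gene made up 11 of 35 at 70% RWC (31.4%, beside 30.0% of all listed genes) and 8 of 43 at 10% RWC (18.6%, beside 30.5%). Flank regions began up to 1674 bp from the gene at 70% RWC and up to 1762 bp at 10% RWC.

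**Figure D3:**
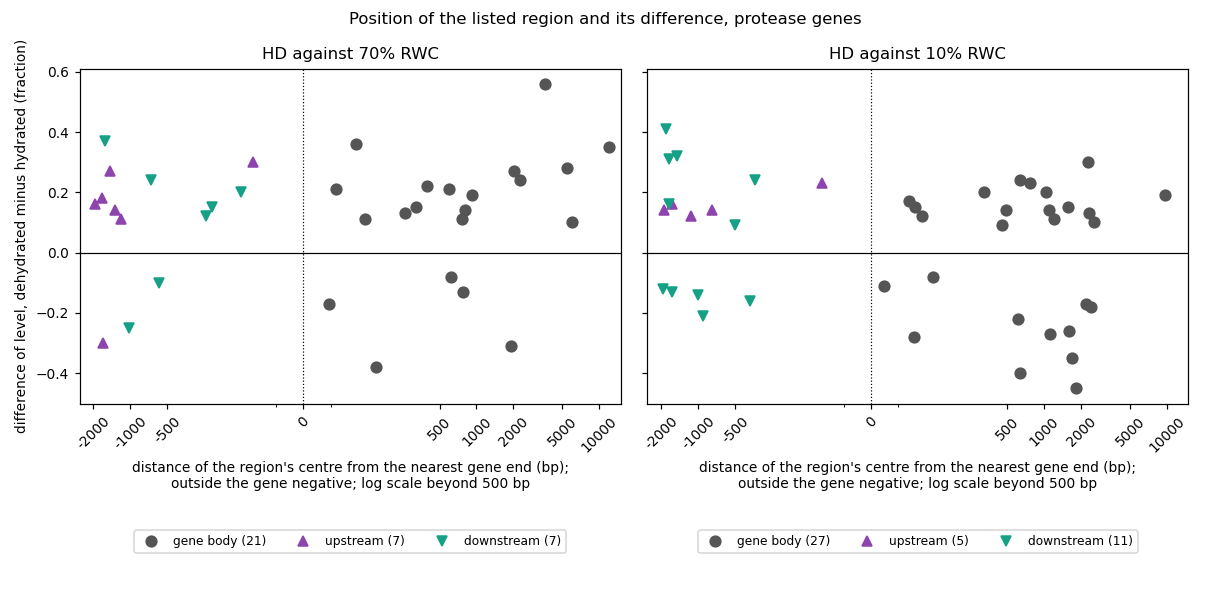
Difference of level, dehydrated minus hydrated (y axis, fraction), against the distance of the region's centre from the nearest end of the gene (x axis, bp, negative outside the gene, log scale beyond 500 bp), for 70% RWC on the left and 10% RWC on the right. Each point is 1 protease gene. At 10% RWC the 5 upstream points lie above 0, while gene body points lie on both sides. The 50.1% of all listed upstream genes that were higher lies inside the interval of so few genes (47.8% to 100%).

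The 20 protease genes in both comparisons give levels in both dehydrated libraries, but the hydrated library is common to both, so a like direction in the 2 tables is no separate evidence. In 10 of these genes the listed regions overlap, by 224 to 489 bp, and in the other 10 they lie 21 to 21841 bp apart. Where regions overlap, the hydrated levels given by the tables differed by a median of 0.025. In these 10 genes the 10% RWC level was below the 70% RWC level in 7 and above it in 3, over stretches that are not identical. For the ClpB gene it was 0.20 beside 0.31, with hydrated levels of 0.65 and 0.62. For methionyl aminopeptidase and tripeptidyl-peptidase II it was above (0.49 and 0.39, 0.43 and 0.36), and the hydrated level was also higher in the 10% RWC table (0.19 and 0.15 for both genes). For oligopeptidase B it was below (0.25 and 0.37), and so was the hydrated level (0.05 and 0.15). Serine carboxypeptidase-like 19 had 0.39 and 0.49, with hydrated levels of 0.16 and 0.19. In these last 4 genes the level of the same hydrated library thus shifted between tables in the same direction as the dehydrated levels. The same held for Bhs1658_005V1.1, Bhs1728_016V1.1 and Bhs862_006V1.1. In the ClpB gene, Bhs6665_002V1.1 and Bhs8783_002V1.1 the hydrated level shifted the other way. An order of 70% and 10% RWC cannot be told apart from such shifts between the tables. Among genes in a single table, 10 of 15 were higher at 70% RWC (beside 70.0% of all genes listed in that table alone) and 11 of 23 at 10% RWC (beside 50.7%).

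**Figure D4:**
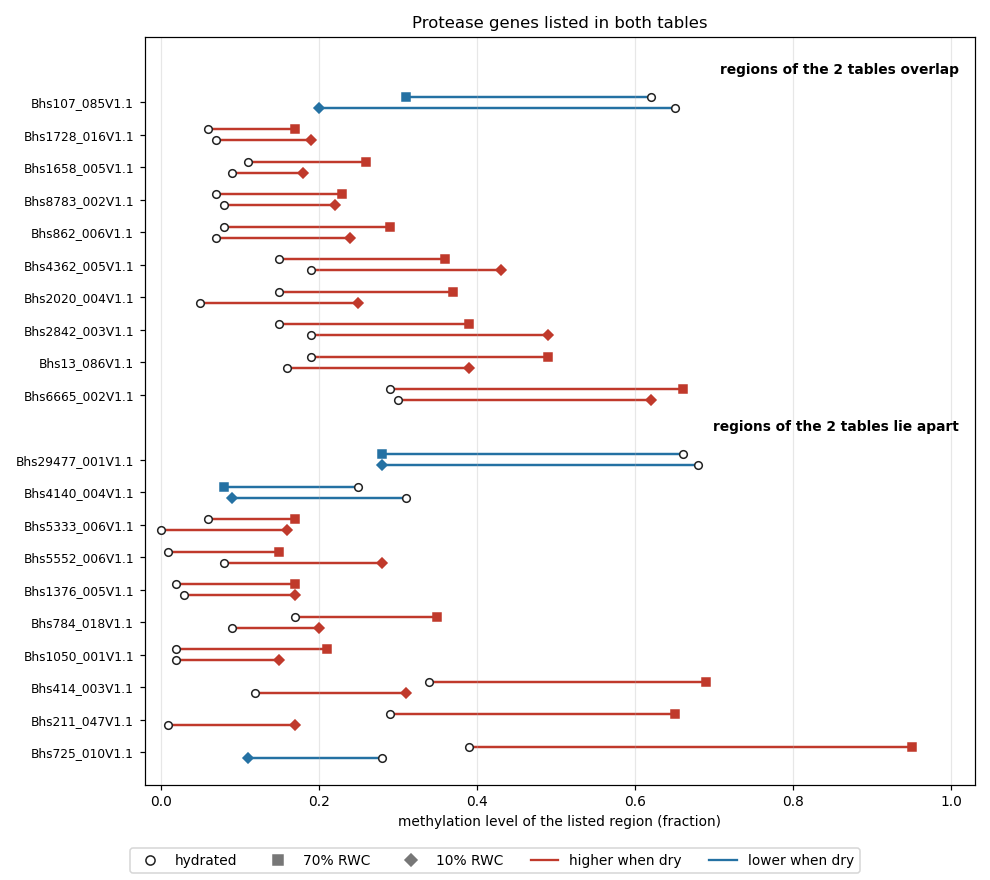
Methylation level (x axis, fraction) of the 20 protease genes listed in both tables, with the hydrated library as open circles, 70% RWC as squares and 10% RWC as diamonds (red where higher and blue where lower than hydrated). The upper 10 genes have overlapping regions and the lower 10 have regions apart; Bhs725_010V1.1 is the gene with opposite directions.

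Other genes of protein breakdown were counted from their descriptions. Genes with the word proteasome were higher in 8 of 14 cases at 70% RWC and in 14 of 22 at 10% RWC (57.1% and 63.6%, beside 70.6% and 55.8% of all listed genes). Many of them share 1 description, non-ATPase regulatory subunit 10, an ankyrin-repeat protein. The word also took in Bhs161_004V1.1, lower in both comparisons, whose description is of a protein that interacts with a proteasome subunit and not of a subunit. Of the catalytic 20S core, an alpha 6 subunit gene was lower at 70% RWC (Bhs7_095V1.1, 0.30 and 0.10), both beta 4 subunit genes were lower at 10% RWC (0.40 and 0.17, 0.33 and 0.16), and an alpha 5 subunit gene was higher (0.07 and 0.17). Outside the proteasome, the only protease inhibitor listed was a serpin B gene, Bhs3702_001V1.1, with 0.87 in its body when hydrated and 0.41 at 70% RWC. A legumain gene, Bhs1029_013V1.1, for a vacuolar processing protease, had 0.01 and 0.11 at 70% RWC. For autophagy the only gene was ATG8 (Bhs6634_001V1.1), the protein that coats the forming autophagosome, with 0.17 when hydrated and 0.35 at 10% RWC. These lists hold too few genes for a direction to be read from them.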

How the data were processed

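Leaf DNA was sonicated, joined to methylated adaptors, treated with bisulfite and amplified, per the labels' protocols, with 1 library for each of 3 conditions. Per the file headers, the authors deposited the average methylation level of each region, a fraction (0 to 1, with 2 decimals). The aligner, region caller, sequence context, conversion rate, coverage and build were not given in the sources used here. No listed region was shorter than 201 bp or had its higher level under 0.1. Blank lines (57411 and 54694) were dropped. Gene ends were computed from gene start and length, since some deposited ends are rounded in scientific notation.

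Members were found by keyword in the first KEGG description, and sorted by the peptidase class of its enzyme number or, without one, by its words. The members and lists were chosen with earlier results of these data known. Named are all FtsH genes, all genes in both tables, the 5 largest differences per table and direction and the largest of each class. The sentrin-specific protease is named because it meets the left-out word by sense, and a few further genes, seen after their values, illustrate their class. With 1 library per condition there is no replicate error and no test. Intervals printed for shares are exact 95% binomial (Clopper-Pearson) intervals, which cover counting only, and genes that share a region are not independent. Shares in gene bodies and shares of genes in both comparisons are printed without an interval. Keyword and interval code was tested on simulated data. The software was pandas 2.3.3, scipy 1.17.1, numpy 2.4.6 and matplotlib 3.10.9 under Python 3.11.15.

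Alternatives were a minimum difference of 0.2 or 0.3, 1 count per region, regions of a single gene, other definitions of a protease gene and log2 ratios with 0.01 added. Leaving out FtsH genes, a match score of at least 100, and FtsH genes with a functional term were alternatives chosen after seeing the data.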

Additional observations from a re-analysis of the deposited data

Results flagged for a closer look

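The Xaa-Pro aminopeptidase gene Bhs725_010V1.1 moved in opposite directions in the 2 comparisons. The difference was 0.56 at 70% RWC and -0.17 at 10% RWC. The regions are separate stretches of the same gene body, 1168 bp apart, each with a level in the hydrated library and 1 dehydrated library. The difference between comparisons was not tested, since each condition has 1 library, and the 10% RWC level of the first stretch and the 70% RWC level of the second are not given.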

How the results depend on the processing

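No paired analysis was possible because each condition has 1 library, and for the same reason no replicate could be left out. Of 48 alternatives, 46 stayed within the 95% interval of the reported value or, for the log2 ratio, kept its sign. The other 2 were the median difference with a minimum difference of 0.2, which is higher by construction because small differences are dropped: 0.24 at 70% RWC (0.15 reported) and 0.20 at 10% RWC (0.12 reported). Some of the 46 could not have moved. Within a comparison each member has its own region, so 1 count per region changes nothing. All 6 FtsH genes at 10% RWC were higher, so every subset of them gives 100%. Intervals of few genes are wide, such as 26.2% to 87.8% for FtsH genes at 70% RWC. The count of 46 is therefore no measure of stability. The share of protease genes with a higher level ranged from 62.5% to 84.0% at 70% RWC and from 55.6% to 66.7% at 10% RWC. Its lowest value at 70% RWC rests on the 8 genes that differ by at least 0.3, and its highest on the 25 genes other than FtsH. Searching every description of a gene raised the members to 74 and 72 and gave shares of 70.3% and 66.7%. Without regions that another gene shares, 40% of 5 FtsH genes were higher at 70% RWC, against 60.0% of 10 reported. FtsH genes with a functional term were higher in 50.0% of 4 genes at 70% RWC and in 100% of 4 at 10% RWC. The shares of all listed genes, 70.6% and 55.8%, lie inside the intervals of these few genes. The share in gene bodies ranged from 50.0% to 66.7% and from 54.2% to 68.6%. On the log2 scale the median difference was 1.18 at 70% RWC and 1.02 at 10% RWC. The 95% interval of the median difference over the 43 genes at 10% RWC ran from -0.11 to 0.15, so it holds both signs. It covers the spread over genes only and not differences between libraries. Over all listed genes the median difference was 0.17 at 70% RWC and 0.1 at 10% RWC. The unknown number of reads limits every single level, most of all those listed at 0.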

Other observations

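A further 10 listed genes at 70% RWC and 11 at 10% RWC carry a peptidase enzyme number but none of the keywords, among them the 20S proteasome subunits and legumain given above. Of these, 9 of 10 were higher at 70% RWC, with 2 of the 9 listed for the same region, and 7 of 11 at 10% RWC, beside 70.6% and 55.8% of all listed genes. The largest difference was at 2 neighbouring genes described as gelatinase A, a matrix metalloprotease known from animals, Bhs595_003V1.1 and Bhs595_004V1.1, which are listed for the same level of 0.34 when hydrated and 0.81 at 70% RWC. The nardilysin gene Bhs107_119V1.1, for a zinc peptidase, had 0.08 and 0.23 upstream at 70% RWC and 0.33 and 0.75 in its body at 10% RWC. A related zinc peptidase gene, insulysin (Bhs98_001V1.1), had 0.55 when hydrated and 0.21 at 10% RWC, upstream. Both genes described as rhomboid domain-containing protein 1, of a family of proteases that cut inside membranes, were higher at 10% RWC, Bhs5_148V1.1 in its body (0.10 and 0.24) and Bhs758_003V1.1 upstream (0.02 and 0.16).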
